A study of Mus musculus with 7 samples.

Results

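The genes described here encode the proteins of the cytosolic ribosome, the particle that translates messenger RNA. They were taken by symbol from the array's platform annotation: Rpl or Rps followed by a digit, together with Rplp0, Rplp1, Rplp2 and Rpsa, without the Rps6k kinases and symbols marked as pseudogenes. The rule found 49 genes of 21515 (67 probes of 25349), 29 with large-subunit symbols and 20 with small-subunit symbols. Each gene is given by its brightest probe, and 47 of the 49 were bright enough to be tested. By its letters the rule also takes Rps19bp1, which encodes a protein that binds Rps19 and is no ribosomal subunit, Rps23rg1, a retrogene, and a few paralogs of restricted expression. Ribosomal protein genes that had no probe with a single symbol, such as Rpl5 and Rps6, were not analysed here.

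Every sample was sorted from mouse spleen 7 days after sheep red blood cells were injected into the peritoneum. The sorted cells carried B220, CD95 and GL7, the surface phenotype of germinal centre B cells, which divide fast after antigen and T cell help. Total RNA from 4 wild-type (WT) and 3 RRas2-deficient samples was read on 1 whole-transcript array each. All samples share the immunization and the sort, and genotype is the labelled difference. How the Rras2 allele was made, in which cells the gene is missing, and the strain, age and sex of the mice are not given in the sources used here. The samples are called biological replicates with no animal named, so a p-value here speaks only of the spread among these 7 samples.

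A ribosome holds a single copy of nearly every one of its proteins, and the cell makes them in matched amounts. Their messages typically begin with a run of pyrimidines, the 5′ terminal oligopyrimidine (TOP) tract, through which the mTOR kinase and the RNA-binding protein LARP1 set how much of each message is translated. R-Ras2 is a small GTPase of the RAS superfamily, and RAS signalling through PI3K is one route to mTOR. The array reads the amount of message, not its translation.

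The start regions of 41 of the 49 genes were found in RefSeq (GRCm38.p6). A tract at the start, defined as C followed by at least 5 further C or T and beginning within 10 bases of the annotated start, was found in 23 of the 41 (56.1%) and in 21.9% of 27025 genes. The windows below cover 15 bases before the start and 15 from it onward, 5′ to 3′, with the tract in capitals. The first 7 show how the tract looks in members whose values are described below, and the last 3, from Rplp0, Rpl4 and Rpl41, held no tract by this definition. The Rpl4 window does show a run of pyrimidines, but it begins more than 10 bases before the annotated start and so was not counted.
Rpl28 (chr7:4792950-4792979, plus strand): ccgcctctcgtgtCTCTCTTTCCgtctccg
Rpl15 (chr14:18270972-18271001, minus strand): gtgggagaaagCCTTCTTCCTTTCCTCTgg
Rpl38 (chr11:114668565-114668594, plus strand): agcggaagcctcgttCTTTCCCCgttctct
Rplp2 (chr7:141447636-141447665, plus strand): tgcgtcagcgtCTTCCTTTCgccgccggac
Rps18 (chr17:33955651-33955680, minus strand): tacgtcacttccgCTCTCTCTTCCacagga
Rps27 (chr3:90213634-90213663, minus strand): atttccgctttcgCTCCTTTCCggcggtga
Rpl22l1 (chr3:28805493-28805522, plus strand): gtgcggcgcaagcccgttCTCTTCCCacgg
Rplp0 (chr5:115559452-115559481, plus strand): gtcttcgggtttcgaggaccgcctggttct
Rpl4 (chr9:64173372-64173401, plus strand): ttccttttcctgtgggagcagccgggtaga
Rpl41 (chr10:128549154-128549183, minus strand): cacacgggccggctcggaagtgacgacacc

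Short motifs were searched on both strands in windows of 300 bases, which run from 250 bases before the start to 50 after it. The ETS core CCGGAAG was found anywhere in this window in 18 of the 41 genes (43.9%) and in 9.93% of all genes. The GC box GGGCGG was found in 51.2% of the 41 against 38.2%, the E-box CACGTG in 7.32% against 8.09%, and TATAAA in 14.6% against 15.7%. A match of letters is a description and not a binding site. The stretches printed next are the 120 bases just before the start of Rps18 and of Rpl15, with the ETS core in capitals; they show the core in the gene of lowest p in the genotype comparison and in a gene that followed the array sets described below.
Rps18 (chr17:33955666-33955785, minus strand): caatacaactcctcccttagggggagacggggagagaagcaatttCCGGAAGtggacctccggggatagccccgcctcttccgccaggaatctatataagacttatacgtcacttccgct
Rpl15 (chr14:18270987-18271106, minus strand): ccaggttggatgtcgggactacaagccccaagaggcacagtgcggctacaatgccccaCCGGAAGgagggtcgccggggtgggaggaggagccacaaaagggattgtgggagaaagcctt

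The values are log2 intensities, on which a difference of 1 is a doubling, and a signal ranks samples for a single probe but does not rank the messages of different genes. Precision depends here on how many arrays there are, since arrays carry no sequencing depth. The targeted gene Rras2 read 7.13, 7.41, 8.66 and 8.39 in WT and 6.93, 6.68 and 7.12 in RRas2-deficient cells, a difference of −0.99 that did not pass adjustment. The 7 arrays also parted by the interquartile range (IQR) of their own values. It was 2.37 to 2.49 on a narrower set of 3 arrays (WT replicates 1 and 2, deficient replicate 2) and 2.69 to 2.91 on a wider set of 4 (WT replicates 3 and 4, deficient replicates 1 and 3). Both genotypes lie in both sets, so each genotype difference is also given with the set as a block where it changes the reading. Within the wider set the IQR was 2.91 and 2.78 on the WT arrays and 2.73 and 2.69 on the deficient arrays. The block therefore leaves a part of the array spread that goes with genotype. The germinal centre B cell markers averaged 8.08 to 8.22 on the narrower and 9.21 to 9.77 on the wider arrays, and all 6 measured were higher on the wider ones. The B cell markers (5 of 5 higher on the wider arrays) averaged 10.40 to 10.54 and 10.86 to 11.08. The T cell markers (0 of 7 higher) averaged 4.32 to 4.89 and 4.03 to 4.25, and the immediate early genes (0 of 10 higher) 7.69 to 8.14 and 6.20 to 7.16. Their part in the ribosomal protein values was not tested.

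Ribosomal protein messages did not differ between genotypes beyond the spread of the arrays. The mean signal over the 49 genes was 7.14, 7.34, 7.67 and 7.55 on the 4 WT arrays and 7.52, 7.26 and 7.57 on the 3 deficient arrays. It averaged 7.43 ± 0.23 (SD) in WT and 7.45 ± 0.17 in deficient cells, and the genotypes overlapped. Of 47 tested genes, 25 had a higher and 22 a lower mean in deficient cells, against 51.7% of all tested genes higher and 48.3% lower. Their median log2 difference was 0.01, with a range from −0.25 to 0.54, and the median of all 16136 tested genes was 0.00. None of the 47 passed an adjusted p of 0.05 in limma (lowest adjusted p = 1.00; 0.0124% of all genes passed). At an unadjusted p of 0.05, 1 of 47 (2.13%) passed, Rps18, beside 0.818% of all genes in either direction and 0.521% with a higher mean. Centring each array on its median lowers every genotype difference by the same amount; 20 members were then higher and 27 lower, and the share of all tested genes that were lower moved from 48.3% to 54.9%. The count of members with a lower mean also moved with single arrays: it was 11 without WT replicate 3, 14 without deficient replicate 2 and 33 without WT replicate 1. In none of the 47 did the genotypes part without overlap, which 1.08% of all genes did (0.719% with the deficient arrays higher).

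The precision of this comparison differed from gene to gene. The 95% interval of the genotype difference lay inside a 2-fold change in either direction for 41 of the 47 genes (87.2%, and 88.1% of all genes). It lay inside a 1.5-fold change for 19 of 47 (40.4%, and 63.8% of all genes). These intervals bound the difference in signal, and 18 of the 47 genes had a mean signal under 6. The counts were not split by signal. The 6 genes whose interval reached past 2-fold were Rpl6, Rpl7, Rpl7l1, Rps18, Rps27 and Rps3a1. For Rpl7, which binds RNA in the large subunit, the interval ran from −1.51 to 1.19, and for Rpl41, the smallest protein of the ribosome, from −0.21 to 0.22. In bulk RNA, fewer cells of a type and less RNA per cell cannot be told apart.

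**Figure D1:**
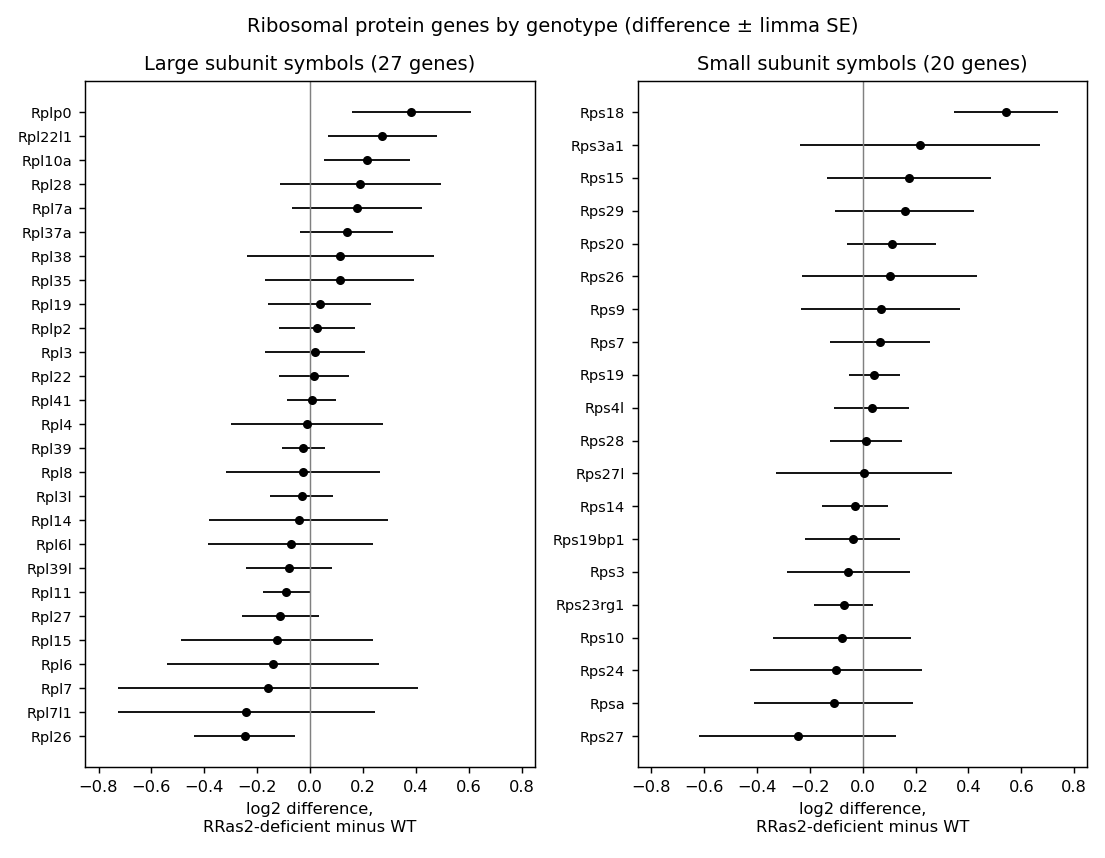
Log2 difference of RRas2-deficient minus WT cells for the 27 large-subunit genes (left) and 20 small-subunit genes (right) that were tested, in order of size, with points for the limma estimate and bars for 1 standard error on each side. The estimates run from −0.25 (Rpl26, Rps27) to 0.54 (Rps18).

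Among large-subunit genes, 13 of 27 had a higher and 14 a lower mean in deficient cells, with a median difference of −0.01. Rplp0, the base of the ribosomal stalk to which elongation factors dock, read 8.31, 8.76, 9.14 and 8.95 in WT and 9.40, 8.87 and 9.25 in deficient cells. The groups overlapped, since deficient replicate 2 lay below 2 WT arrays, and the difference was 0.38 ± 0.22 (limma standard error; unadjusted p = 0.134). Rplp2, its partner in the stalk, differed by 0.03 ± 0.14, at a dim mean signal of 4.16. Rpl10a read 8.75, 9.10, 9.29 and 9.19 in WT and 9.06, 9.39 and 9.44 in deficient cells, a difference of 0.22 ± 0.16. Here 2 of the 3 deficient arrays lay above all 4 WT arrays.

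Rpl26, known for binding the message of p53, had the largest lower difference of the large subunit. It read 6.14, 6.65, 6.17 and 6.69 in WT and 5.91, 6.28 and 6.30 in deficient cells, a difference of −0.25 ± 0.19, and 2 of the deficient arrays lay between WT values. Rpl11, a part of the 5S particle that binds MDM2 when ribosome assembly fails, differed by −0.09 ± 0.09. Its probe was dim, at a mean signal of 4.66. Mdm2 itself differed by 0.03. Rpl38, known for its role in translating Hox messages, differed by 0.11 ± 0.35 and Rpl27 by −0.11 ± 0.14. Rpl37a, at a dim mean signal of 4.43, differed by 0.14 ± 0.18. The brightest member probes were those of Rpl28, Rpl4 and Rpl19, which differed by 0.19 ± 0.30, −0.01 ± 0.29 and 0.04 ± 0.19.

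Among small-subunit genes, 12 of 20 had a higher and 8 a lower mean, with a median difference of 0.02. Blocking on the array set turned the counts to 8 higher and 12 lower, with a median of −0.04, so the small subunit had no settled direction. Rps18, a protein of the head of the small subunit, read 7.05, 7.65, 7.69 and 7.21 in WT and 7.69, 8.10 and 8.04 in deficient cells. It averaged 7.40 ± 0.32 (SD) in WT and 7.94 ± 0.22 in deficient cells, a difference of 0.54 ± 0.20 (limma standard error). Its unadjusted p in limma was 0.0299 and its adjusted p was 1.00. Deficient replicate 1 lay level with WT replicate 3, and the other deficient arrays lay above all WT arrays. The difference was 0.75 within the narrower and 0.41 within the wider arrays, and 0.42 to 0.67 when any single array was left out.

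Rps3a1 read 9.55, 9.55, 10.43 and 10.44 in WT and 10.23, 9.31 and 11.08 in deficient cells. The deficient arrays hold both its highest and its lowest value, and the difference was 0.22 ± 0.45. The small-subunit members named next for roles outside the ribosome or in disease had differences within their errors. Rps3, which also takes part in DNA repair, differed by −0.05 ± 0.23, and Rpsa, also known as a laminin receptor, by −0.11 ± 0.30. Rps19, mutated in Diamond-Blackfan anaemia, differed by 0.04 ± 0.10, and its binding partner Rps19bp1 by −0.04 ± 0.18. Rps14, lost in the 5q- syndrome, differed by −0.03 ± 0.12. The probes of Rps19 and Rps14 were dim, at mean signals of 5.29 and 5.97. A small difference at a dim probe need not mean an unchanged message. Rps15, the dimmest tested member, differed by 0.17 ± 0.31, and deficient replicate 2 alone read 4.64 where the other deficient arrays read 3.22 and 3.77.

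**Figure D2:**
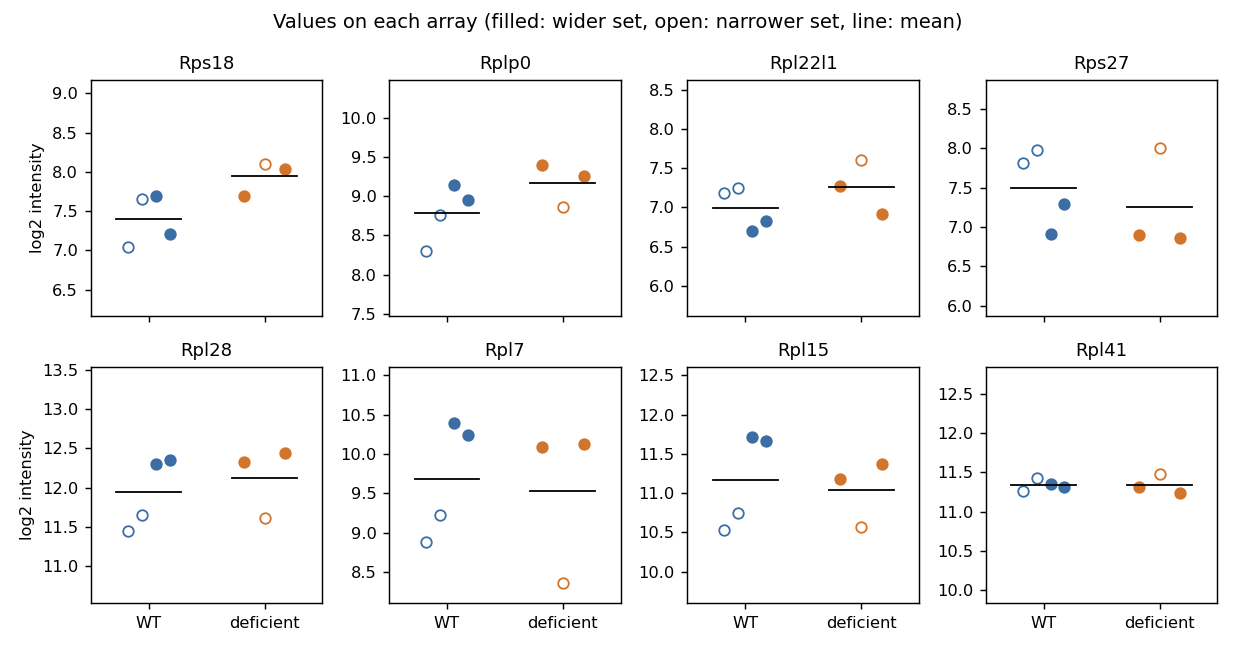
Log2 intensity on each array for 8 ribosomal protein genes, 1 panel per gene on a scale of equal span, with 4 WT arrays in blue, 3 RRas2-deficient arrays in orange, open points for the narrower and filled points for the wider array set (by interquartile range, above), and a line for each group mean. Rps18 is the gene of lowest p (difference 0.54), and Rps27 and Rpl7 divide by array set in opposite directions.

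Paralogs that stand in for a ribosomal protein in certain tissues were read beside their partners. Rpl22 and Rpl22l1 compete for the same place in the ribosome, and Rpl22 is known for its role in lymphocyte development. Rpl22 differed by 0.01 ± 0.13. Rpl22l1 read 7.18, 7.24, 6.70 and 6.83 in WT and 7.27, 7.60 and 6.91 in deficient cells, a difference of 0.27 ± 0.21 (unadjusted p = 0.227 in limma). In each array set its deficient values lay above every WT value of that set, with mean differences of 0.39 in the narrower and 0.33 in the wider set. The narrower set holds a single deficient array, and the share of all genes with such an order is not given here. Because Rpl22l1 read lower on the wider arrays, this order was not visible over all 7 arrays together.

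Rps27 and Rps27l encode near-identical proteins of the small subunit, the latter induced by p53. Rps27 read 7.82, 7.97, 6.91 and 7.29 in WT and 6.90, 8.0 and 6.86 in deficient cells, a difference of −0.25 ± 0.37. Rps27l read 5.48, 5.76, 6.63 and 6.63 in WT and 6.14, 5.83 and 6.42 in deficient cells, a difference of 0.01 ± 0.33. Neither differed by genotype beyond its error, but the array sets parted in both without overlap and in opposite directions. Rps27 was lower on the wider arrays by 0.94 (a difference of −0.94), and Rps27l was higher there by 0.77. The set difference of Rps27 was −1.41 after the further quantile normalization of the arrays and −0.81 with each array centred on its median.

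The probes of muscle and testis paralogs were dim. The muscle form Rpl3l, at a mean signal of 4.09, differed by −0.03 ± 0.12 and its partner Rpl3 by 0.02 ± 0.19. The testis form Rpl39l differed by −0.08 ± 0.16 and Rpl39 by −0.03 ± 0.08. The testis form Rpl10l, at 3.37, and Rpl32l, at 2.61, were below the limit of 3.48 for testing. Rpl7l1 differed by −0.24 ± 0.49 and Rpl7 by −0.16 ± 0.57. Ribosomal protein genes have many near-identical processed pseudogenes, so a probe may also read copies elsewhere in the genome.

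Other probes of the same genes often read differently from the brightest. Of the 49 genes, 16 had more than 1 probe, with 18 further probes between them. The sign of the genotype difference was opposite to that of the kept probe in 11 of the 18, and the sign of the difference between array sets in 10. For Rps18, the further probes, at mean signals of 4.21 and 3.99, differed by −0.01 and −0.08 where the kept probe differed by 0.54. For Rplp0 the further probe differed by 0.07 where the kept probe differed by 0.38. So the differences of Rps18 and Rplp0 rest on 1 probe each.

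In a fit over all 25349 probes, 1 of the 18 further probes had an unadjusted p under 0.05 in limma, beside 1.15% of all probes, and the lowest adjusted p was 1.00. It was the dimmer probe of Rpl4, a large-subunit protein that lines the exit tunnel. It read 5.69, 6.46, 6.10 and 5.61 in WT and 6.33, 7.24 and 7.16 in deficient cells, a difference of 0.94 ± 0.30. The bright Rpl4 probe read 11.43, 11.52, 12.31 and 12.11 in WT and 12.05, 11.35 and 12.10 in deficient cells. The bright probe divided the arrays by set, and the dim probe, with a set difference of −0.16, did not follow it. With the array set as a block, 4 of the 18 further probes had an unadjusted p under 0.05, beside 8.85% of all probes, and the lowest adjusted p in limma was 0.416. These were the further probes of Rpl4 (1.00), Rps3a1 (0.37) and Rpl35 (0.34), with higher log2 values in deficient cells, and of Rpsa (−0.41), with lower values.

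The clearest order among the members was by array set, in both genotypes. The mean over the wider arrays was above that over the narrower arrays in 33 of 47 genes (70.2%, and 47% of all tested genes). The median difference between the sets was 0.38, and −0.02 over all tested genes. The sets did not overlap, with the wider arrays higher, in 25 of the 47 genes (53.2%; 26.9% of all genes). With the wider arrays lower, they did not overlap in 3 (6.38%; 13.6% of all genes), which were Rps27, Rpl39l and Rpl3l. The sets were parted by the spread of the same values, so these counts are a description and carry no test.

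**Figure D3:**
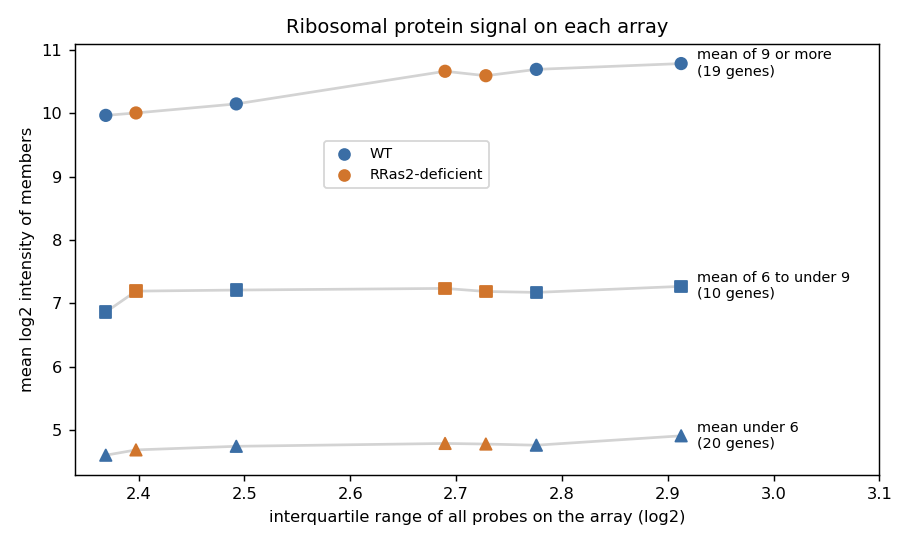
Mean log2 intensity of the ribosomal protein genes on each of the 7 arrays (WT blue, RRas2-deficient orange) against the interquartile range of all probes on the array, for 3 classes of mean signal; grey lines join the points of a class. The 19 bright genes average 9.96 to 10.14 on the narrower and 10.59 to 10.78 on the wider arrays.

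The size of the difference between sets went with signal. Of the 19 members at a mean signal of 9 or more, 18 were higher on the wider arrays, with a median difference of 0.71. Over all tested genes this bright, 353 of 425 (83.1%) were higher, with a median of 0.49. Of the 10 members from 6 to under 9, 6 were higher, with a median of 0.22. Of the 18 tested members under 6, 9 were higher, with a median of 0.02. The difference also moved with the scaling of the arrays. After a further quantile normalization, which gives all arrays the same spread, 15 of the 19 bright members were higher on the wider arrays, with a median of 0.37, and 30 of all 47, with a median of 0.12. With each array centred on its median, which moved the median of all genes from −0.02 to 0.11, all 19 bright members were higher, with a median of 0.84. The share of all tested genes this bright that were higher under either scaling is not given here.

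Rpl7 had the largest difference between the sets. It read 8.88 and 9.22 on the narrower WT arrays, 8.36 on the narrower deficient array, and 10.08 to 10.40 on the wider arrays, a difference of 1.39. Rpl28 read 11.45, 11.65, 12.30 and 12.35 in WT and 12.32, 11.61 and 12.44 in deficient cells, which put the sets 0.78 apart with no overlap. Rpl15 read 10.53, 10.75, 11.72 and 11.67 in WT and 11.18, 10.57 and 11.37 in deficient cells, with the sets 0.87 apart.

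Bright members did not all follow the sets. Rpl41 read 11.26, 11.43, 11.35 and 11.31 in WT and 11.31, 11.47 and 11.24 in deficient cells, with a set difference of −0.09 as deposited, −0.19 after the further quantile normalization and 0.05 with centring. Rps28, another small and bright member, differed between sets by 0.18. Both span a narrow range on all 7 arrays, beside a set difference of 0.71 in the median bright member.

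**Figure D4:**
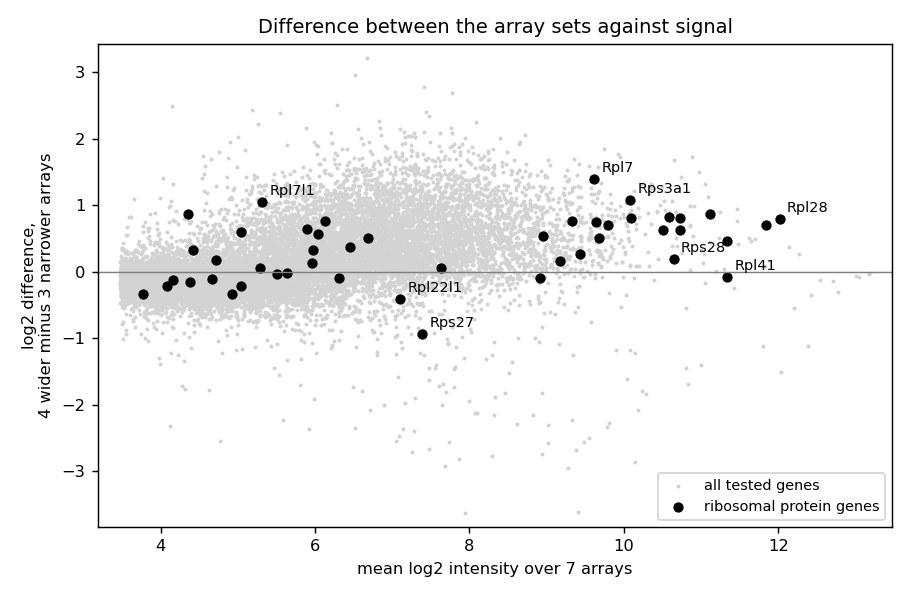
Difference of the 4 wider minus the 3 narrower arrays against mean log2 intensity, with 1 grey point per tested gene and black points for ribosomal protein genes. Of the 19 members at 9 or more, 18 lie above 0, and Rpl41 lies just below it while Rps27 lies at −0.94.

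With the set as a block, the genotype median of the members moved from 0.01 to −0.02, with 20 higher and 27 lower (49.1% and 50.9% of all genes). Of the 19 members at a mean signal of 9 or more, 14 were lower with the block, beside 71.5% of all tested genes this bright. An unadjusted p under 0.05 was then found for 5 of 47 members (10.6%), and for 10.1% of all genes, so the members' share was near the background. Higher in deficient cells were Rpl22l1 (0.35 ± 0.11, unadjusted p = 0.0122 in limma), Rps18 (0.55 ± 0.20, unadjusted p = 0.0269 in limma) and Rplp0 (0.30 ± 0.13, unadjusted p = 0.0477 in limma), beside 3.89% of all genes. Lower were Rpl7 (−0.40 ± 0.14, unadjusted p = 0.0208 in limma) and Rpl15 (−0.28 ± 0.11, unadjusted p = 0.0414 in limma), beside 6.24% of all genes. None passed adjustment, and the lowest adjusted p in limma was 0.381. With the IQR as a covariate, 2 of 47 (4.26%; 4.7% of all genes), Rplp0 and Rps18, had an unadjusted p under 0.05.

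**Figure D5:**
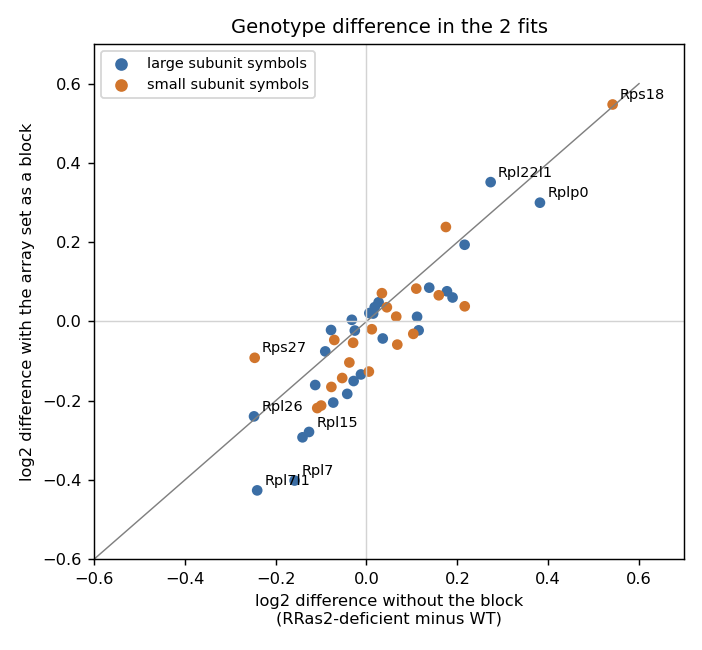
Genotype difference of each tested ribosomal protein gene with the array set as a block (vertical axis) against the difference with no block (horizontal axis), both as log2 and limma estimates, with large-subunit genes in blue, small-subunit genes in orange and a line where both fits are equal. Rps18 lies near 0.54 on both axes, and Rpl7 moves from −0.16 to −0.40.

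The tract at the start was set beside the array values. Of 22 tested members with a tract, the median genotype difference was 0.03, and of 17 without it was −0.01. The group without a tract includes Rpl4, whose run of pyrimidines lay outside the counted window. The grouping therefore depends on the annotated start and need not match which messages carry a TOP tract. The median difference between array sets was 0.55 with and 0.32 without a tract. The median signal of the members was 7.25 with and 6.46 without a tract, and its part in the set difference was not tested.

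Chromosome 7 carries Rras2 and 5 members. By gene order, Rps9 lies 1460 genes, Rpl28 1430, Rps19 1091 and Rps3 336 before Rras2, and Rplp2 lies 346 after it. Their genotype differences were 0.07, 0.19, 0.04, −0.05 and 0.03, all within their errors.

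Other genes of the same system were read from a fixed list, of which 35 were measured. Of these, 15 had a higher and 20 a lower mean in deficient cells, and 0 had an unadjusted p under 0.05 in limma (0.818% of all genes). Fau, a small-subunit protein with another symbol, differed by 0.05 ± 0.30. Of 22 other messages with a TOP tract, 8 were higher and 14 lower, with a median of −0.03. With the set as a block 3 were higher and 19 lower, with a median of −0.19. In that fit 50.9% of all genes were lower, and 71.5% of all tested genes at a mean signal of 9 or more. These 22 messages averaged 8.10 to 9.13 on the 7 arrays. In the same fit 3 of the 22 had an unadjusted p under 0.05 in limma, all lower, beside 6.24% of all genes. None of the 22 passed adjustment. With the IQR as a covariate 8 of the 22 were lower, with a median of 0.03, so their direction was not settled. On the wider arrays 21 of the 22 were higher, with a median of 0.74. Of 12 regulators, 6 were higher and 6 lower. With the block 3 were higher and 9 lower, beside the same 50.9% of all genes lower. With the IQR as a covariate 6 of the 12 were lower. Mtor read 7.09 to 7.15 on all 7 arrays and differed by 0.00 ± 0.07. Myc, which drives ribosome production, differed by −0.00 ± 0.39, and Larp1 by 0.10 ± 0.25.

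The 4 genes of this list with the lowest p were Zfp622, Cnbp, Eif4ebp2 and Eif4a2. Zfp622, which acts on the large subunit, read 7.35, 7.50, 7.38 and 7.48 in WT and 7.28, 7.26 and 7.35 in deficient cells, with WT replicate 1 level with deficient replicate 3 (unadjusted p = 0.138 in limma). Cnbp, which binds TOP messages, differed by −0.31 ± 0.25, and with the set as a block by −0.40 ± 0.12 (unadjusted p = 0.0131). Eif4ebp2, an mTOR-controlled repressor of translation, differed by 0.27 ± 0.24. Eif4a2, a helicase of translation initiation, differed by −0.51 ± 0.49 and read 9.82 to 10.31 on the narrower and 8.38 to 9.19 on the wider arrays. With the block, 5 of the 35 had an unadjusted p under 0.05 in limma (14.3%). Beside them stood 10.1% of all genes and 59 of the 425 genes at a mean signal of 9 or more. In that fit 29 of the 35 had a lower mean in deficient cells, beside 50.9% of all genes and 71.5% of those 425.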

How the data were processed

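Total RNA was labelled with biotin and read on whole-transcript arrays, as the labels' protocols state. Each transcript cluster has a log2 intensity as deposited by the authors; RMA and the package oligo stand in the submitters' processing notes, with no version. Probes were named from the platform annotation: 22225 had 1 gene symbol, 616 several and 2508 none, and only the first kind was used. The brightest probe of a gene over 7 arrays was kept, and genes dimmer on average than the 25th percentile (3.48) were left out. The 16136 genes that remained were fitted with limma 3.58.1 in R 4.3.3 (lmFit, eBayes, two-sided, Benjamini-Hochberg over all genes, threshold 0.05). Errors beside differences are limma's standard errors, and every gene's p is limma's. The fit was tested on simulated data. The narrower and wider arrays were parted at an IQR of 2.59. Start regions are from RefSeq on GRCm38.p6; no source used here gives the build of the array annotation.

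Besides the whole list, genes were named by p, size, signal, paralogy, known role and place. The members, lists and alternatives were chosen with earlier results of these data known. Alternatives were a looser and a stricter dim filter, averaging the probes of a gene, centring, a further quantile normalization, array weights, a trended robust prior, a replicate block, the array set as a block, the IQR as a covariate, each set alone and each array left out.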

Additional observations from a re-analysis of the deposited data

Results flagged for a closer look

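In 5 of the 50 groups of WT values examined (the 49 genes and their mean), a single array stood apart from the other 3 by more than Dixon's critical value, which chance does in about 1 group in 20. WT replicate 1 was that array in 4 of them. It read 4.86 for Rpl11 (others 4.63 to 4.66), 3.53 for Rps15 (3.74 to 3.77), 4.31 for Rps20 (4.77 to 4.82) and 5.45 for Rps7 (6.05 to 6.17). WT replicate 2 read 3.71 for Rpl10l, where the others read 3.25 to 3.29, below the limit for testing. All 5 genes had a mean signal under 6, and the deficient group of 3 arrays is too small to be examined this way. Of the 49 members, 12 hold a value repeated exactly on more than 1 array. Among them, Rps15 has the same value on WT replicates 3 and 4, and Rps20 on WT replicates 2 and 3. The rate of 1 in 20 assumes no such ties.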

How the results depend on the processing

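No member passed an adjusted p of 0.05 in limma here or under any of the 19 alternatives. The count of all genes that passed, 2 here, was 1 with centring, 5 with array weights, and 0 with the replicate block, the narrower arrays alone or the wider alone. The count of members with an unadjusted p under 0.05, 1 here (2.13%, and 0.818% of all genes), was 2 with the mean over probes (4.26%, and 0.849%), 3 with array weights (6.38%, and 7.83%), 5 with the set block (10.6%, and 10.1%), 2 with the IQR covariate (4.26%, and 4.7%) and 2 on the narrower arrays alone (4.26%, and 8.37%). Partner genes with a lower mean, 20 of 35 here (48.3% of all genes), were 11 with the replicate block (44.9%) and 31 on the wider arrays alone (53.2%). Leaving out each array gave 0 to 2 genes called, 0 to 1 members under an unadjusted p of 0.05 (0 without WT replicate 1 or 4 or deficient replicate 2 or 3), 11 to 33 members with a lower mean, and 6 to 31 partner genes lower. The median difference of the members then ran from −0.07 to 0.11, of the large subunit from −0.05 to 0.17 and of the small subunit from −0.08 to 0.12. Of 47 members, 8 kept their sign here and under every alternative that could fit them. Higher were Rps18, Rplp0, Rpl22l1, Rpl10a, Rpl28 and Rpl37a, and lower were Rpl26 and Rpl11. The share of all tested genes that kept their sign in this way is not given here. The looser and stricter dim filters and the trended robust prior leave each estimate as it was, so they could change no sign. The alternatives reuse the same arrays, so a kept sign is no independent evidence of a genotype difference. The replicate number was not used as a pairing in the main fit. The deviations of same-numbered arrays correlated at −0.59, 0.78 and 0.66 for replicates 1, 2 and 3. Replicate 1 lies in different array sets in the 2 genotypes, and replicates 2 and 3 each lie in the same set. These correlations therefore cannot show whether the samples were paired. With the replicate number as a block, 0 members passed adjustment, 17 members were lower and the median was 0.04 (large subunit 0.03, small subunit 0.07). No deficient array carries the number of WT replicate 4, so this block gave the same differences as leaving that array out. With 4 and 3 arrays, the intervals of most members reached past a 1.5-fold difference.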
